A study of Saccharomyces cerevisiae with 10 samples.

Results

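Baker's yeast dried in warm air for 8 h was compared with fresh yeast of the same kind. The comparison uses 4 of the 10 arrays of a drying series, namely the 2 arrays of cells dried for 8 h and the 2 arrays of cells taken at 0 h. Every sample was Saccharomyces cerevisiae sold as baker's yeast and grown in fed-batch culture, and the labels name no strain and no genetic change. For the 8 h group, pressed cells on aluminium trays stood in a dry oven under a stream of air at 37 °C, while the 0 h cells had not yet been dried. Poly(A) RNA was labelled and measured on Affymetrix Yeast Genome S98 arrays, and both experiments at each time were independent according to the series' design text. No group was kept warm without drying, so water loss, warmth and time in the oven cannot be told apart. The RNA came from whole cell populations, in which fewer cells of a kind and less RNA per cell cannot be told apart either.

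Drying removes water from a yeast cell until its cytoplasm becomes crowded and its proteins and membranes are at risk of damage. Yeast is known to answer heat and water loss with chaperones of the Hsp70 and Hsp100 families, which refold or dissolve damaged proteins, and with trehalose and glycerol, which protect proteins and balance osmotic pressure. Much of this response is switched on by the transcription factors Hsf1, Msn2 and Msn4. Sugar and amino acid transporters, in contrast, follow the nutrients that the cell senses outside.

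Values are given as multiples of the median of their array, always replicate 1 before replicate 2. They compare 1 gene between arrays and do not rank genes, because probe sets differ in affinity. The 8 h arrays differed in brightness, with median signals of 23.6 and 115.4, against 42.3 and 98.5 on the 0 h arrays. The ratio of 3' to 5' signal of actin, which grows as labelled RNA gets shorter, was 6.44 and 2.70 at 8 h and 5.38 and 2.62 at 0 h. The upper tail of the signal was also longer on the dim array, where the 99th percentile stood at 138.3 medians, against 68.5 on the other 8 h array and 98.6 and 67.0 at 0 h. Replicate arrays correlated across genes at Pearson r = 0.942 for 8 h and r = 0.973 for 0 h, where genes are not independent replicates.

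After 8 h, 51 of 5365 genes differed from fresh yeast at an adjusted p under 0.05 in limma (0.951% of genes tested). Of these, 27 were higher (0.503%) and 24 were lower (0.447%). The difference was at least 2-fold for all 51, and both 8 h arrays lay above or below both 0 h arrays. Over all genes, both 8 h arrays lay above both 0 h arrays for 19.3% and below them for 16.9%, so a lack of overlap between these groups was common. At an unadjusted p under 0.05, 251 genes were higher (4.68%) and 246 were lower (4.59%), and the median difference of all genes was 0.01 log2 units. Protein-coding genes made up 28 of the 51, and the other 23 were genes for tRNAs and small nucleolar RNAs. With each of the 4 arrays left out in turn, 11 of the 51 kept their call every time and 6 lost it every time. The 11 were SSA4, ARO9 and DIP5 among protein-coding genes, and 8 tRNA genes.

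**Figure D1:**
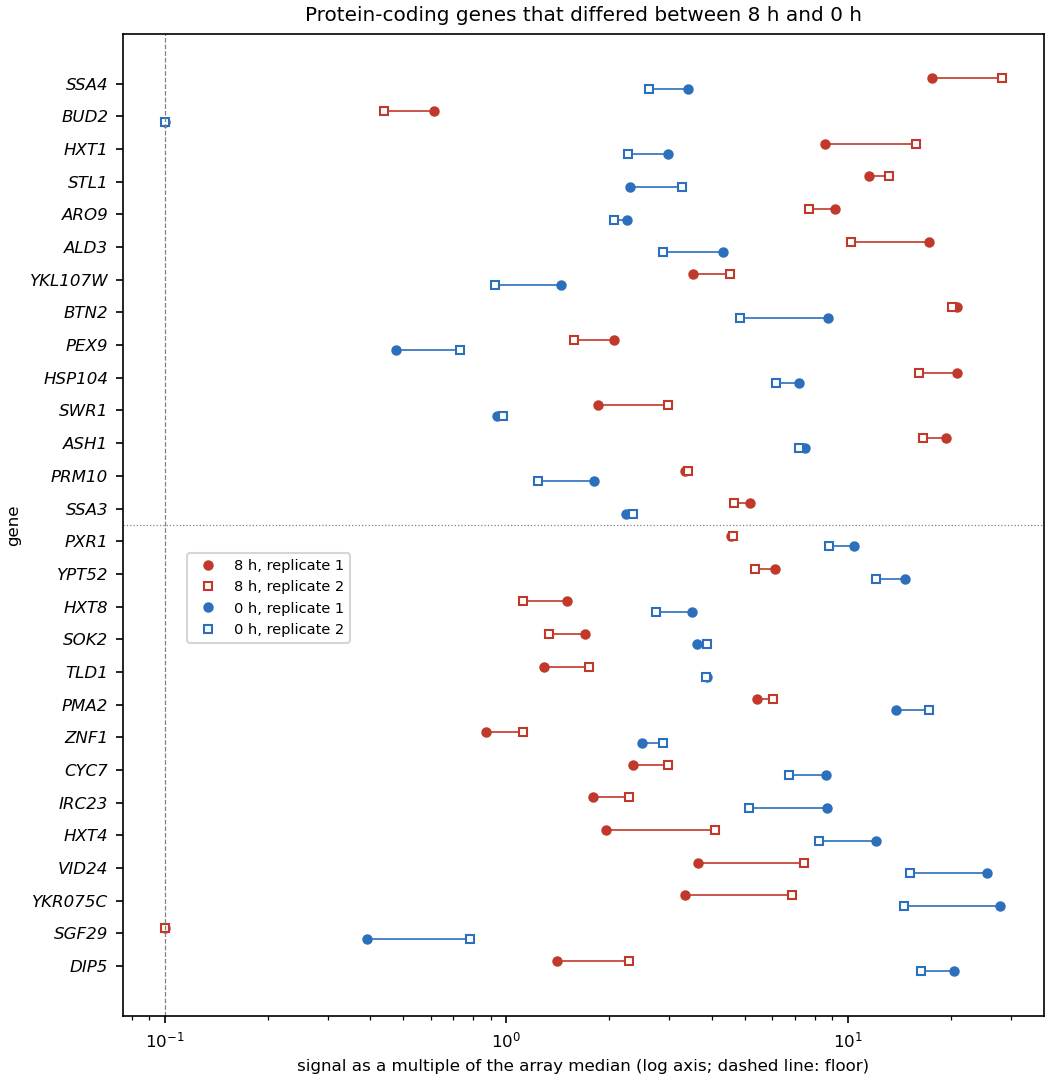
Signal of the 28 protein-coding genes that passed the test, as multiples of the array median on a log axis, with 8 h in red above 0 h in blue and 1 point per array. Genes above the dotted line were higher at 8 h, those below it were lower, and in no gene do the red and blue points overlap. SSA4 had 17.6 and 28.2 medians at 8 h, against 3.40 and 2.61 at 0 h, and DIP5 had 1.41 and 2.29 at 8 h, against 20.4 and 16.4 at 0 h.

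The 8 h arrays often differed in direction. Their difference from the 0 h mean had the same sign in 57.6% of all genes tested, and 42.9% of all genes were higher on replicate 1 than on replicate 2. Of the 27 genes called higher, 20 were higher on the dim replicate 1, among them all 10 tRNA genes and 8 of the 14 protein-coding genes. Of the 24 called lower, 16 were lower on that array. The count of calls was 186 when replicate 2 of 8 h was left out and 28 when replicate 1 was left out.

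**Figure D2:**
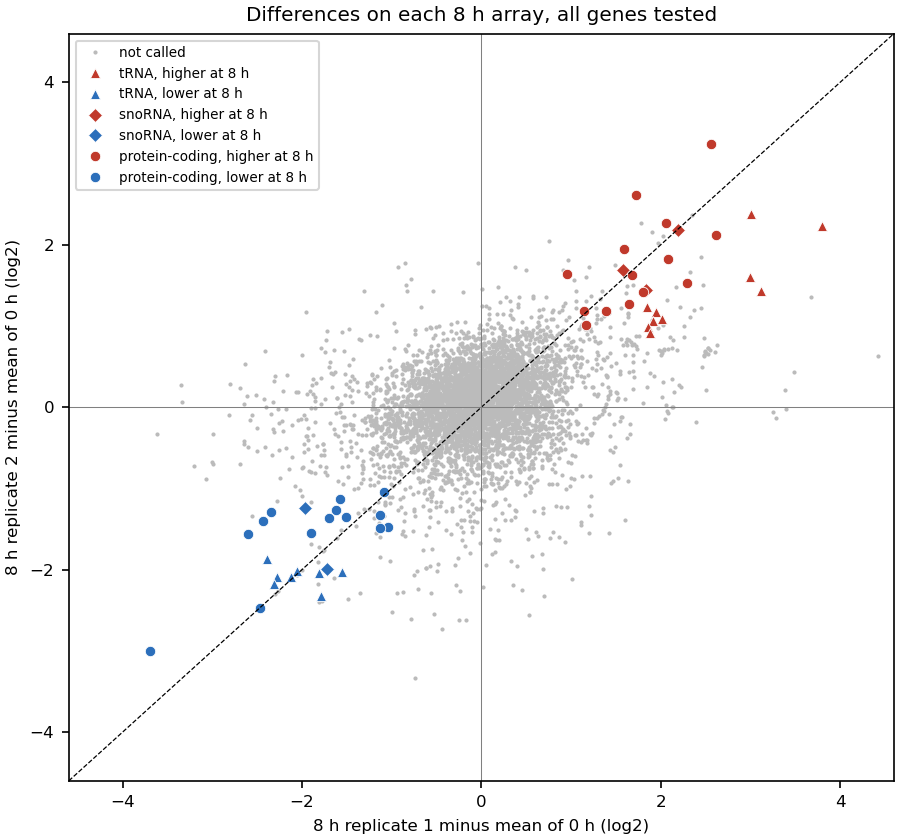
Difference of each 8 h array from the mean of the 0 h arrays in log2 units, with replicate 1 across and replicate 2 upward, for all 5365 genes. Called genes lie near the dashed line of equal difference, called tRNA genes that were higher (red triangles) lie below it, and uncalled genes in grey spread wide along both axes.

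Cytosolic chaperones held the largest rise of a protein-coding gene. SSA4, a stress-inducible Hsp70, stood at 17.6 and 28.2 medians after 8 h, against 3.40 and 2.61 in fresh cells. This is a difference of 2.90 ± 0.31 log2 units (SE, n = 2 arrays per group, limma adjusted p = 0.000247), or 7.49-fold. The call held with any 1 array left out, at adjusted p values from 0.000462 to 0.00932 in limma.

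A further 3 chaperone genes were higher. BTN2, which gathers misfolded proteins into deposits, stood at 20.9 and 20.1 medians after 8 h, against 8.74 and 4.84 at 0 h (1.66 ± 0.32, limma adjusted p = 0.0211). HSP104, whose product pulls proteins out of aggregates, had 20.9 and 16.1 medians, against 7.21 and 6.15 (1.46 ± 0.30, adjusted p = 0.0367). SSA3, another inducible Hsp70, had 5.15 and 4.63 medians, against 2.24 and 2.35 (1.09 ± 0.22, adjusted p = 0.0346). Their groups stood well apart, yet the calls were often lost when 1 array was left out, which leaves 1 array in that group. The differences themselves stayed positive, at 1.27 to 1.65 for HSP104, 1.02 to 1.17 for SSA3 and 1.23 to 2.08 for BTN2. HSP104 and SSA3 passed with replicate 2 of 8 h left out (adjusted p = 0.0186 and 0.0279) and with no other array left out, where adjusted p ran from 0.179 to 0.306 for HSP104 and from 0.142 to 0.324 for SSA3. BTN2 lost its call without replicate 1 of 8 h (0.104) and without replicate 2 of 0 h (0.31).

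The rest of the chaperone list was not called, and a missing call does not show that a gene was unchanged. Of 31 measured members of the chaperone list, 4 were higher and 0 were lower, beside 0.503% and 0.447% of all genes. The list's median difference was 0.16, beside 0.01 for all genes. That median was 0.33 on replicate 1 and 0.06 on replicate 2 of 8 h, and it fell to -0.09 without replicate 2 of 0 h. The Hsp90 gene HSP82 had 14.8 and 23.0 medians, against 9.49 and 8.47, and did not pass (1.04 ± 0.33, limma adjusted p = 0.231). The small heat shock genes HSP26 and HSP42, whose products hold unfolded proteins, differed by -0.07 ± 0.31 and 0.59 ± 0.30. HSP12, which protects membranes, had 278.5 and 91.1 medians at 8 h, against 197.0 and 126.7 at 0 h, so that the 0 h values lay between the 8 h values. HSP30, a plasma membrane stress protein, differed by -1.12 ± 0.34 (adjusted p = 0.211). TSL1, a trehalose synthase subunit that the list also holds, differed by 0.17 ± 0.29.

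**Figure D3:**
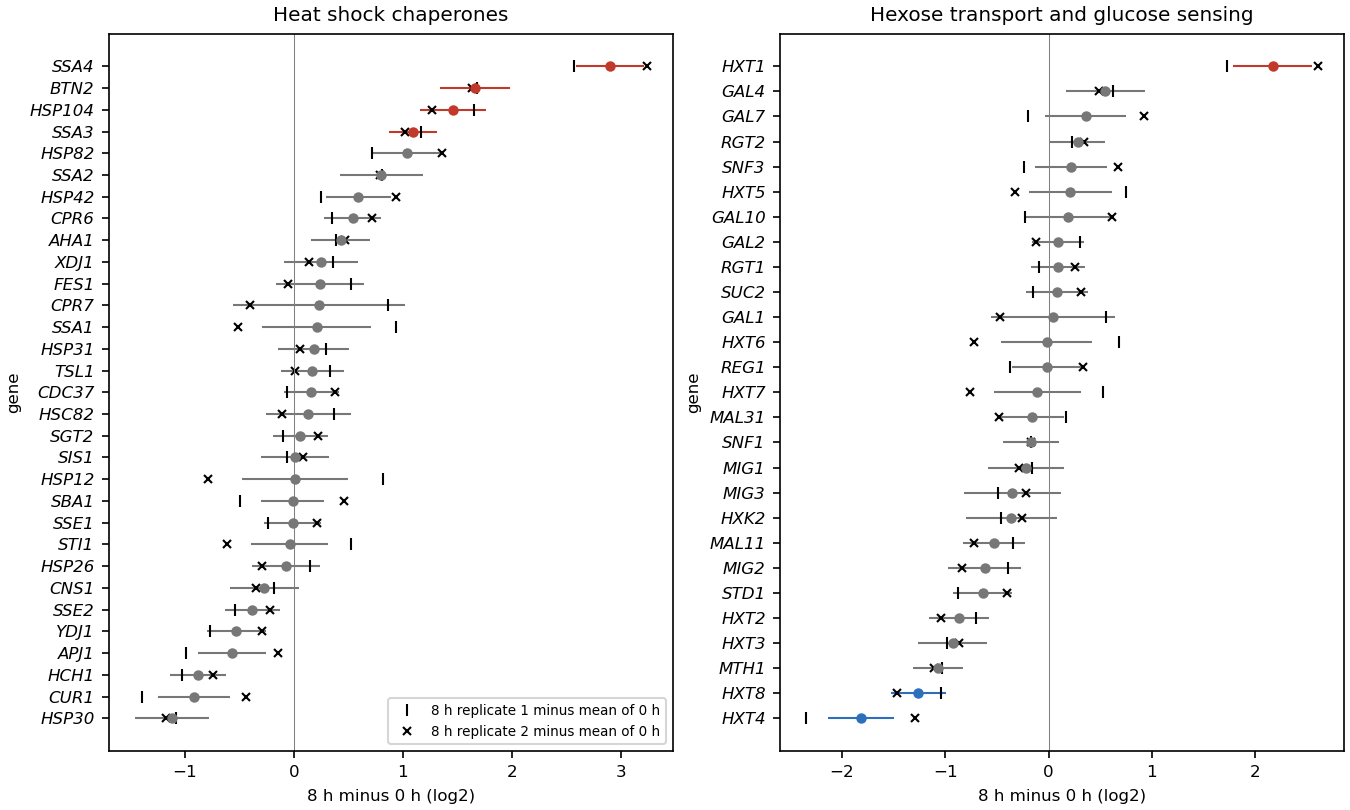
Differences of 8 h minus 0 h in log2 units for the 31 measured chaperone genes on the left and the 27 measured genes of hexose transport and glucose sensing on the right. Dots are means with limma's SE, in red where higher, in blue where lower and in grey where not called, and the bar and cross marks show each 8 h array. SSA4 stands apart at 2.90 on the left, and HXT1 at 2.17 and HXT4 at -1.82 mark the ends on the right.

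Among genes of osmotic and general stress, 2 passed the test. STL1, which takes up glycerol together with protons, stood at 11.5 and 13.2 medians after 8 h, against 2.30 and 3.27 in fresh cells (2.16 ± 0.41, limma adjusted p = 0.0192). ALD3, a cytosolic aldehyde dehydrogenase of the general stress response, stood at 17.2 and 10.2 medians, against 4.31 and 2.87 (1.91 ± 0.41, adjusted p = 0.0399). Both calls passed without replicate 2 of 8 h (adjusted p = 0.0403 for STL1 and 0.0137 for ALD3) and were lost without any other of the 4 arrays, at 0.0795 to 0.288 for STL1 and 0.174 to 0.383 for ALD3. In their lists, STL1 was the 1 call among 16 glycerol and osmotic stress genes (median 0.13), and ALD3 was the 1 call among 39 general stress genes (median 0.12). Of all genes, 0.503% were called higher. The median of the general stress list changed sign with the arrays, at 0.25 on replicate 1 and -0.08 on replicate 2 of 8 h. After quantile normalization it was -0.09.

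Other stress genes gave values that did not pass. GPD1, which makes the glycerol precursor, had 49.2 and 37.6 medians at 8 h, against 28.6 and 26.9 at 0 h (0.63 ± 0.28, limma adjusted p = 0.526). For trehalose synthesis, TPS1 differed by 0.09 ± 0.29 and TPS2 by 0.71 ± 0.29. Of 10 genes of trehalose metabolism, 0 were called (median 0.13), beside 0.951% of all genes. NTH1, which breaks trehalose down, differed by 0.56 ± 0.27. SIP18, a hydrophilin, had 117.7 and 44.6 medians at 8 h, against 107.6 and 59.6 at 0 h, and its 8 h values again enclosed the 0 h values. The catalase gene CTT1 differed by 0.12 ± 0.29 and the superoxide dismutase gene SOD2 by 0.20 ± 0.29. Among the transcription factors behind these responses, MSN2, MSN4 and HSF1 differed by -0.08 ± 0.30, -0.32 ± 0.27 and -0.03 ± 0.37. YRO2, a membrane protein related to Hsp30, also had lower values, with 9.40 and 12.5 medians at 8 h, against 22.2 and 28.5 at 0 h (-1.21 ± 0.30, adjusted p = 0.0824).

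Hexose transporters moved in opposite directions. HXT1, a low-affinity glucose transporter used at high glucose, stood at 8.58 and 15.8 medians after 8 h, against 2.97 and 2.27 at 0 h (2.17 ± 0.38, limma adjusted p = 0.0125). HXT4, a high-affinity transporter, stood at 1.96 and 4.08 medians, against 12.1 and 8.23 (-1.82 ± 0.32, adjusted p = 0.0125). HXT8, a further member of the hexose transporter family, stood at 1.5 and 1.12 medians, against 3.49 and 2.74 (-1.26 ± 0.27, adjusted p = 0.0422). HXT1 and HXT4 lie close to each other on the same chromosome, with HXT5 next to them. HXT5, known for its role in slow growth and reserve use, had 127.1 and 60.3 medians at 8 h, against 89.2 and 63.9 at 0 h (0.21 ± 0.40).

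Both HXT1 and HXT4 lost their calls without replicate 1 of 0 h (limma adjusted p = 0.0983 and 0.226). HXT1 also lost it without replicate 2 of 0 h (0.166) and HXT4 without replicate 1 of 8 h (0.0959), while HXT8 failed with any 1 array left out (0.0529 to 0.472). Of 27 measured genes in the list of hexose transport and glucose sensing, 1 was higher and 2 were lower, beside 0.503% and 0.447% of all genes. The list's median was -0.11. Further members of the family with lower values were HXT2 (-0.87 ± 0.29, adjusted p = 0.28) and HXT3 (-0.93 ± 0.33, adjusted p = 0.323), which did not pass. MTH1, a repressor of hexose transporter genes in the absence of glucose, had 8.66 and 8.21 medians at 8 h, against 20.2 and 15.5 at 0 h, and stopped just short of the threshold (-1.07 ± 0.24, adjusted p = 0.0513).

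The largest fall of any gene was that of DIP5, the permease for glutamate and aspartate. It stood at 1.41 and 2.29 medians after 8 h, against 20.4 and 16.4 in fresh cells, a difference of -3.35 ± 0.33 (limma adjusted p = 0.000189), or 10.2-fold lower. The call held with any 1 array left out, at adjusted p values from 0.00021 to 0.00838. DIP5 was the 1 call among 26 amino acid and peptide permeases, beside 0.447% of all genes called lower. The list's median was -0.30 (-0.15 without replicate 1 of 0 h and -0.17 without replicate 2 of 8 h). Both 8 h arrays lay below both 0 h arrays for 15 of the 26, beside 16.9% of all genes. The low-affinity methionine permease gene MUP3 followed with 1.61 and 1.49 medians, against 3.34 and 3.43, and narrowly missed the threshold (-1.13 ± 0.25, adjusted p = 0.0509). The general amino acid permease gene GAP1 had 4.39 and 4.31 medians, against 6.14 and 6.44 (-0.53 ± 0.26, adjusted p = 0.549). PMA2, a minor isoform of the proton pump that powers such permeases, was lower, with 5.43 and 6.05 medians at 8 h, against 13.8 and 17.3 at 0 h (-1.43 ± 0.25, adjusted p = 0.0125). PMA2 passed without replicate 2 of 8 h (0.0116) and failed without each other array (0.0813 to 0.173).

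VID24 was lower after 8 h. Its product is the substrate receptor of the GID ubiquitin ligase, which marks gluconeogenic enzymes for breakdown when glucose returns. It stood at 3.64 and 7.43 medians, against 25.5 and 15.2 at 0 h (-1.92 ± 0.33, limma adjusted p = 0.0106). The other 9 measured GID genes were not called, beside 0.951% of all genes called, and the list's median was 0.00. At an unadjusted p under 0.05 in limma, 0 of the 10 were higher and 3 were lower, beside 4.68% and 4.59% of all genes. These were VID24, UBC8 (-0.65) and VID28 (-0.61). In the list as a whole, the difference was positive for 5 and negative for 5. FBP1, which encodes a target of this ligase (fructose-1,6-bisphosphatase), differed by -0.37 ± 0.30. This is an RNA difference and does not measure breakdown of the protein. YKR075C, given here without a role, was also lower, with 3.33 and 6.85 medians, against 27.8 and 14.6 (-2.08 ± 0.39, adjusted p = 0.0192). Of the 4 arrays compared, both genes were lowest on replicate 1 of 8 h and highest on replicate 1 of 0 h. VID24 and YKR075C lost their calls without replicate 1 of 8 h (0.0931 and 0.171) and without replicate 1 of 0 h (0.222 and 0.338). GAC1 and PIG2, regulatory subunits that steer a protein phosphatase to glycogen synthase, had lower values that did not pass (-1.13 ± 0.27, adjusted p = 0.0645, and -1.04 ± 0.27, adjusted p = 0.117). The glycogen synthase gene GSY2 itself differed by 0.19 ± 0.30 and the glycogen phosphorylase gene GPH1 by 0.10 ± 0.27.

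In central metabolism a few single genes passed. ARO9, an aminotransferase that begins the breakdown of aromatic amino acids, stood at 9.13 and 7.68 medians after 8 h, against 2.25 and 2.07 (1.96 ± 0.27, limma adjusted p = 0.00156). It kept its call with any 1 array left out (0.00212 to 0.0425). ARO8, the other enzyme for this step, differed by -0.01 ± 0.29. CYC7, the minor isoform of cytochrome c, stood at 2.35 and 2.97 medians, against 8.61 and 6.74 (-1.53 ± 0.26, adjusted p = 0.0104). CYC1, the major isoform, had 9.71 and 12.9 medians, against 8.99 and 9.24, and did not pass (0.29 ± 0.24). CYC7 was the 1 call among 44 genes of the respiratory chain and ATP synthase, and it failed without replicate 1 of 8 h (0.0819) and also without replicate 1 of 0 h (0.22). The median of that list was -0.11, and 0.447% of all genes were called lower.

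Peroxisomes, where yeast breaks down fatty acids, held 1 called gene outside the list and 0 within it, beside 0.951% of all genes. PEX9, an import receptor of peroxisomes, stood at 2.06 and 1.58 medians after 8 h, against 0.475 and 0.732 (1.61 ± 0.29, limma adjusted p = 0.0154). It failed without replicate 1 of 8 h (0.104) or of 0 h (0.26). The list of peroxisomes and beta-oxidation had the highest median of the 48 lists, at 0.37, with 0.29 on replicate 1 and 0.34 on replicate 2 of 8 h, and 0.21 without replicate 2 of 0 h. Of its 47 measured genes, 10 were higher and 0 were lower at an unadjusted p under 0.05, beside 4.68% and 4.59% of all genes. Both 8 h arrays lay above both 0 h arrays for 21 of the 47, beside 19.3% of all genes. PXA1, part of the fatty acid importer, had 3.21 and 5.47 medians, against 2.57 and 1.81 (0.96 ± 0.29, adjusted p = 0.208). Its partner PXA2 differed by 0.79 ± 0.25 and the acyl-CoA synthetase gene FAA2 by 0.84 ± 0.26, both at adjusted p = 0.212. FOX2, an enzyme of beta-oxidation, differed by 0.74 ± 0.32, and PEX11, which acts in peroxisome division, by 0.62 ± 0.28.

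Among genes of cell division and chromatin, ASH1, BUD2 and SWR1 were higher. ASH1, a repressor of mating type switching in daughter cells, stood at 19.3 and 16.6 medians after 8 h, against 7.46 and 7.21 (1.29 ± 0.23, limma adjusted p = 0.0149). BUD2, which acts on the GTPase of bud site selection, stood at 0.614 and 0.437 medians and did not exceed the floor on either 0 h array. This is 5.18-fold above the floor (limma adjusted p = 0.0447). Values near the floor cannot be told from background here, so the size of this rise is uncertain. SWR1, the motor of the complex that places the histone variant H2A.Z, stood at 1.85 and 2.98 medians, against 0.936 and 0.975 (1.3 ± 0.27, adjusted p = 0.0399). Other probe sets of SWR1 were not called. The other 12 measured genes of its complex were not called either, beside 0.951% of all genes called, with BDF1 next at 0.61 (adjusted p = 0.513). ASH1 and BUD2 passed without replicate 2 of 8 h (0.0103 and 0.0355) but with no other array left out (0.0952 to 0.243), and SWR1 passed without replicate 1 of 8 h alone (0.0195; otherwise 0.11 to 0.324).

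Genes of transcription control, traffic and RNA processing were among the falls. SGF29, a subunit of the SAGA complex that reads histone methylation, did not exceed the floor of 0.1 medians on either 8 h array. It stood at 0.392 and 0.781 medians at 0 h, which is 5.54-fold above the floor (limma adjusted p = 0.0492). Values near the floor cannot be told from background here, so the size of this fall is uncertain. ZNF1, a zinc cluster transcription factor, stood at 0.873 and 1.12 medians, against 2.49 and 2.87 (-1.44 ± 0.30, adjusted p = 0.0367). SOK2, a transcription factor of the protein kinase A pathway, stood at 1.70 and 1.33 medians, against 3.62 and 3.86 (-1.31 ± 0.29, adjusted p = 0.0447). YPT52, a GTPase of endosomal traffic, stood at 6.11 and 5.33 medians, against 14.7 and 12.1 (-1.22), and PXR1, a nucleolar RNA processing factor, at 4.53 and 4.62, against 10.4 and 8.80 (-1.06). None of these genes overlapped between the groups, but that held for all 51 called genes and, in this direction, for 16.9% of all genes. SOK2, YPT52 and PXR1 lost their calls with any 1 array left out (adjusted p 0.0574 to 0.472), and SGF29 and ZNF1 passed without replicate 2 of 8 h alone (0.0467 and 0.0175).

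The remaining protein-coding calls were YKL107W, PRM10, IRC23 and TLD1. YKL107W stood at 3.51 and 4.50 medians after 8 h, against 1.45 and 0.927 (1.78 ± 0.29, limma adjusted p = 0.00894). PRM10, named for its response to pheromone, stood at 3.33 and 3.41 medians, against 1.81 and 1.24 (1.17, adjusted p = 0.0429). IRC23 stood at 1.79 and 2.28 medians, against 8.68 and 5.12 (-1.72 ± 0.28, adjusted p = 0.00894), and TLD1 at 1.29 and 1.75, against 3.87 and 3.83 (-1.36 ± 0.25, adjusted p = 0.0178). YKL107W lost its call when replicate 2 of 0 h was left out (0.156), and IRC23 when replicate 1 of 8 h (0.0727) or of 0 h (0.208) was. PRM10 failed with any 1 array left out (0.0571 to 0.456), and TLD1 passed without replicate 2 of 8 h alone (0.0055).

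Genes for tRNAs, the adapters of translation, were called in both directions. Of 91 measured tRNA genes, 10 were higher and 8 were lower (19.8% called), beside 0.538% of protein-coding genes. At an unadjusted p under 0.05, 66 were higher and 8 were lower, and both 8 h arrays lay above both 0 h arrays for 63 and below them for 9, beside 19.3% and 16.9% of all genes. The probe sets of 74 of the 91 are of a kind that binds several members of a gene family, so the genes are not independent measurements. Transfer RNA carries no poly(A) tail and the RNA had been enriched for poly(A), so these signals come from RNA that passed the selection, and the part of carry-over in them was not tested. The control probe sets for ribosomal RNA, which is selected against in the same way, gave median levels of 51.3 and 31.1 array medians at 8 h, against 59.9 and 44.8 at 0 h, for 25S, and of 27.8 and 21.7, against 45.2 and 27.4, for 18S.

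Most tRNA genes were higher on the dim 8 h array. The median difference from the 0 h mean over all 91 was 1.95 on replicate 1 and 0.50 on replicate 2 of 8 h, and 84 of the 91 were higher on replicate 1. The summed level was 10519 and 3499 medians at 8 h, against 2950 and 2303 at 0 h. Within 8 h and within 0 h, the dimmer array, with the higher 3' to 5' ratio and the longer upper tail, had the higher sum. Between times this did not hold, since dim replicate 1 of 0 h summed to less than bright replicate 2 of 8 h. The part of these array traits was not tested. At 4 h the arrays were similar in brightness, with median signals of 80.1 and 73.9. The median tRNA difference of 8 h minus 4 h was 0.14. TRR4 shows the spread, with 149.4 and 10.7 medians at 8 h, against 7.76 and 6.20 at 0 h, and did not pass (2.53 ± 0.79, limma adjusted p = 0.212).

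The tRNA genes SUF5 and SUF3, glycine tRNA genes known from frameshift suppressors, were high on both 8 h arrays. SUF5 stood at 139.9 and 47.3 medians, against 9.95 and 10.2 (3.01 ± 0.42, limma adjusted p = 0.00173), the largest rise of any gene. SUF3 stood at 46.1 and 29.8 medians, against 5.38 and 6.06 (2.70 ± 0.27, adjusted p = 0.000189). Both kept their calls with any 1 array left out, at adjusted p up to 0.0451 for SUF5 and up to 0.00838 for SUF3. HSX1, an arginine tRNA gene, stood at 6.77 and 2.58 medians, against 0.823 and 0.876 (2.30, adjusted p = 0.00712), and CDC65, a glutamine tRNA gene, at 20.1 and 6.25, against 2.09 and 2.56 (2.28 ± 0.42, adjusted p = 0.0173). HSX1 lost its call without either 0 h array (0.0983 and 0.053), and CDC65 passed without replicate 2 of 8 h alone (0.000316). The other 6 that were higher were YNCD0009W, YNCB0013W, YNCE0008C, YNCD0014C, YNCC0010C and YNCL0009C, at 1.40 to 1.56. All 6 lost their calls without replicate 1 of 8 h, at adjusted p from 0.104 to 0.258, and without replicate 1 of 0 h, at 0.251 to 0.48. YNCB0013W, YNCC0010C and YNCL0009C lost theirs also without replicate 2 of 0 h (0.081, 0.129 and 0.152).

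The tRNA genes that were lower formed a separate group on both arrays. YNCB0015W stood at 3.0 and 3.3 medians after 8 h, against 16.6 and 13.3 (-2.24, limma adjusted p = 0.00143). YNCJ0014C, the smallest of the 8 falls, stood at 3.79 and 2.73 medians, against 12.7 and 9.74 (-1.79, adjusted p = 0.00374). Between them lay YNCE0010W, YNCM0004C, YNCK0006C, YNCM0033C, YNCD0011W and YNCJ0011W, from -2.18 to -1.92. The next tRNA gene in rank, YNCJ0008W, differed by -0.46 and was not called. The median of the 8 was -2.09 on replicate 1 and -2.06 on replicate 2 of 8 h, and their summed level was 22.8 and 21.8 medians at 8 h, against 102.6 and 82.9 at 0 h. All 8 were measured by family probe sets with close values, so they may stand for fewer RNAs than genes. With 1 array left out at a time, 6 of the 8 kept their calls every time, and YNCJ0014C (0.102) and YNCM0033C (0.0524) lost theirs without replicate 1 of 0 h.

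**Figure D4:**
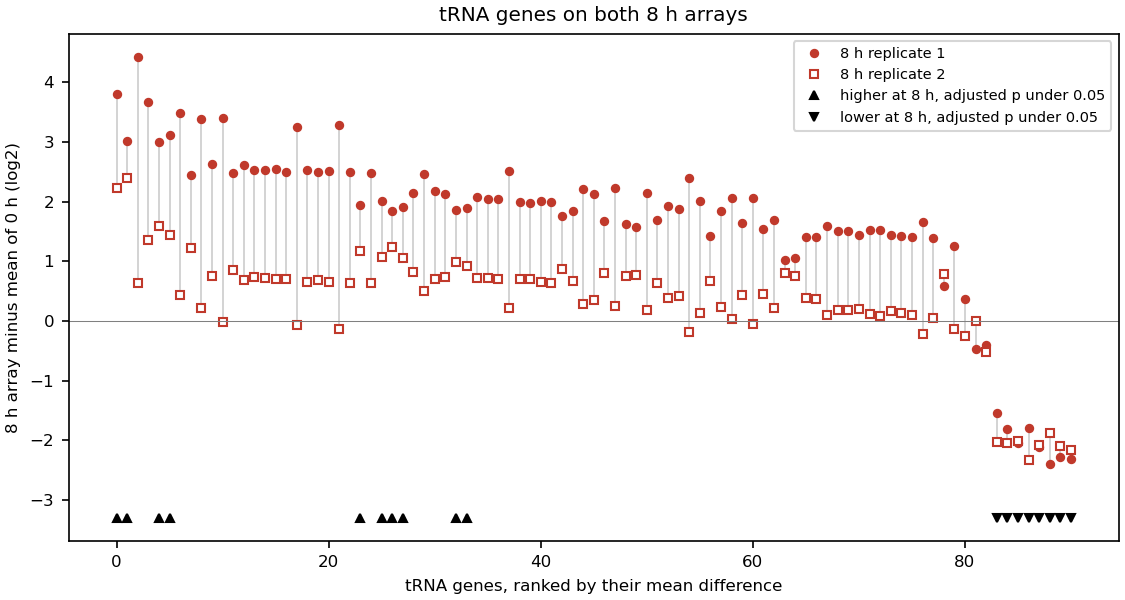
Difference of each 8 h array from the mean of the 0 h arrays in log2 units for 91 tRNA genes, ranked by their mean difference, with filled circles for replicate 1, open squares for replicate 2 and triangles at the bottom for called genes. Replicate 1 lies above replicate 2 for 84 genes, and the 8 genes called lower lie together near -2 on both arrays.

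Small nucleolar RNAs, which guide modification of ribosomal RNA, held 5 calls among 53 genes (9.43%), beside 0.951% of all genes. Their median difference was -0.06, and 50 of the 53 were measured by probe sets without a family mark. SNR71, of the C/D box class that guides methylation, stood at 23.4 and 23.2 medians after 8 h, against 7.75 and 3.35 (2.19, limma adjusted p = 0.0211). SNR38 stood at 7.75 and 5.86 medians, against 1.94 and 2.42 (1.64), and SNR76 at 20.2 and 21.8, against 7.68 and 5.96 (1.63, adjusted p = 0.0447). SNR34, of the H/ACA class that guides pseudouridylation, was lower, with 1.86 and 1.54 medians, against 6.85 and 5.49 (-1.86 ± 0.36, adjusted p = 0.0206), and so was SNR78, with 0.839 and 1.38, against 3.90 and 2.75 (-1.61 ± 0.35, adjusted p = 0.0429).

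SNR76 and SNR78, called in opposite directions, belong to a run of 7 neighbouring genes, SNR72 to SNR78, that yeast is known to transcribe as 1 precursor. Along this run the differences were 1.47 for SNR72, 0.51 for SNR73, 0.19 for SNR74, 0.35 for SNR75, 1.63 for SNR76, -0.32 for SNR77 and -1.61 for SNR78, and the 5 others were not called. SNR76 failed with any 1 array left out (limma adjusted p 0.0768 to 0.383), and SNR78 passed without replicate 2 of 8 h alone (0.00978). SNR34 likewise passed in that case alone (0.0453). SNR71 lost its call without replicate 1 of 8 h (0.104) or replicate 2 of 0 h (0.306), and SNR38 without replicate 1 of 8 h (0.0894) or of 0 h (0.208).

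Most gene lists had few or no calls at 8 h. Of 48 lists, 40 had 0 called genes, and list medians ran from -0.33 to 0.37. Only 0.951% of all genes were called, so 0 calls in a list does not show that its genes were unchanged. Ribosome biogenesis, which makes new ribosomes in growing cells, had a median of -0.21 over 118 genes, with 0 called, 2 higher and 10 lower at an unadjusted p under 0.05, beside 4.68% and 4.59% of all genes. Its median was -0.32 on replicate 1 and -0.03 on replicate 2 of 8 h. CBF5, the pseudouridine synthase of the H/ACA particles, had 3.35 and 2.67 medians, against 6.04 and 6.45 (-1.06 ± 0.26, limma adjusted p = 0.0822). NOP56, a core protein of the C/D particles, differed by -0.96 ± 0.29. Genes for cytosolic ribosomal proteins had a median of 0.14 over 80 genes, with 0.38 and -0.03 on replicates 1 and 2, and 0 passed even at an unadjusted p under 0.05. Autophagy had 0 calls among 33 genes (median 0.01) and amino acid synthesis outside sulfur 0 among 64 (0.00). For other lists a median near 0 joined arrays that disagreed. The proteasome had 0 calls among 36 genes and a median of -0.02, with -0.33 on replicate 1 and 0.25 on replicate 2 of 8 h. Glycolysis and fermentation had 0 calls among 27 genes and a median of -0.03, with 0.37 on replicate 1 and -0.37 on replicate 2. The polyubiquitin gene UBI4 differed by 0.03 ± 0.30, and actin, ACT1, by 0.11 ± 0.38.

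Markers of other kinds of yeast cell had 0 calls, beside 0.951% of all genes, with members that moved both ways. The 26 measured mating and haploid-specific genes summed to 20.4 and 18.1 medians at 8 h, against 19.7 and 15.1 at 0 h, with a median difference of 0.08. At an unadjusted p under 0.05, 3 of the 26 were higher and 0 were lower, beside 4.68% and 4.59% of all genes. Both 8 h arrays lay above both 0 h arrays for 9 of them and below for 4, beside 19.3% and 16.9% of all genes. The difference was positive for 14 and negative for 12, from -1.38 to 2.36, and the members named next all had positive differences. STE4, the beta subunit of the pheromone pathway's G protein, had 2.66 and 3.22 medians, against 2.0 and 1.66 (0.69 ± 0.25, limma adjusted p = 0.335). AGA2, a subunit of a-agglutinin, had 0.508 and 0.517 medians and did not exceed the floor at 0 h (adjusted p = 0.211). ASG7, specific to MATa cells, had 0.733 and 0.671 medians, against 0.338 and 0.168 (1.56 ± 0.69, adjusted p = 0.524). The pheromone receptor genes STE2 and STE3, which define the mating types, were under 1 median on all 4 arrays, at 0.42 ± 0.45 and 0.50 ± 0.41.

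The 28 sporulation and meiosis genes summed to 91.1 and 75.3 medians at 8 h, against 103.6 and 75.3 at 0 h, with a median difference of -0.23. That median was 0.17 on replicate 1 and -0.31 on replicate 2 of 8 h. At an unadjusted p under 0.05, 1 was higher and 3 were lower, beside 4.68% and 4.59% of all genes. SGA1, a glucoamylase of sporulating cells, had 8.78 and 7.41 medians, against 4.78 and 2.74 (1.16 ± 0.29, limma adjusted p = 0.0884). RMD6, needed for meiotic nuclear division, had 0.911 and 0.606 medians, against 4.85 and 2.09 (-2.10 ± 0.59, limma adjusted p = 0.167). SSP1 had 0.102 and 0.569 medians, against 0.936 and 0.942 (-1.97 ± 0.6, limma adjusted p = 0.211), and lay near the floor on replicate 1 of 8 h. The part of such cells in the other results was not tested.

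The step from 4 h to 8 h held few differences that passed. In the same fit, 1 of 5365 genes was called (0.0186%), CIN5, a transcription factor of salt and drug stress that was picked out after its values were seen. It was lower at 8 h than at 4 h, with 1.87 and 1.43 medians at 8 h, against 5.10 and 5.30 at 4 h (-1.67 ± 0.24, limma adjusted p = 0.0301). Over the series it stood at 1.47 and 1.24 medians at 0 h, 8.30 and 7.09 at 1 h and 8.37 and 8.29 at 2 h, so that its 8 h level lay near that of fresh cells (0.28 ± 0.24 against 0 h, adjusted p = 0.811). Its 8 h call against 4 h was lost without replicate 2 of 4 h (0.105) and without either 0 h array (0.0847 and 0.0831), although those arrays enter only the shared spread. Leaving out replicate 2 of 8 h raised the count of calls against 4 h to 38, replicate 1 of 4 h to 21 and replicate 1 of 8 h to 5.

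Genes called at 8 h against 0 h reached their levels along different courses. SSA4 stood at 55.2 and 50.7 medians at 1 h, 28.2 and 18.4 at 2 h and 33.7 and 39.7 at 4 h, so its 8 h values of 17.6 and 28.2 lay below those of 4 h, a step that did not pass (-0.71 ± 0.31, limma adjusted p = 0.635). ASH1 had its highest values at 8 h, after 4.83 and 6.02 medians at 1 h, 7.76 and 7.30 at 2 h and 11.4 and 11.1 at 4 h (8 h minus 4 h 0.68, adjusted p = 0.526). DIP5 had its lowest values at 8 h, at -1.04 against 4 h (adjusted p = 0.526). IRC23 differed from 4 h by -1.24 and YPT52 by -1.05, both at adjusted p = 0.38. These steps share the 8 h arrays with the comparison against fresh cells.

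**Figure D5:**
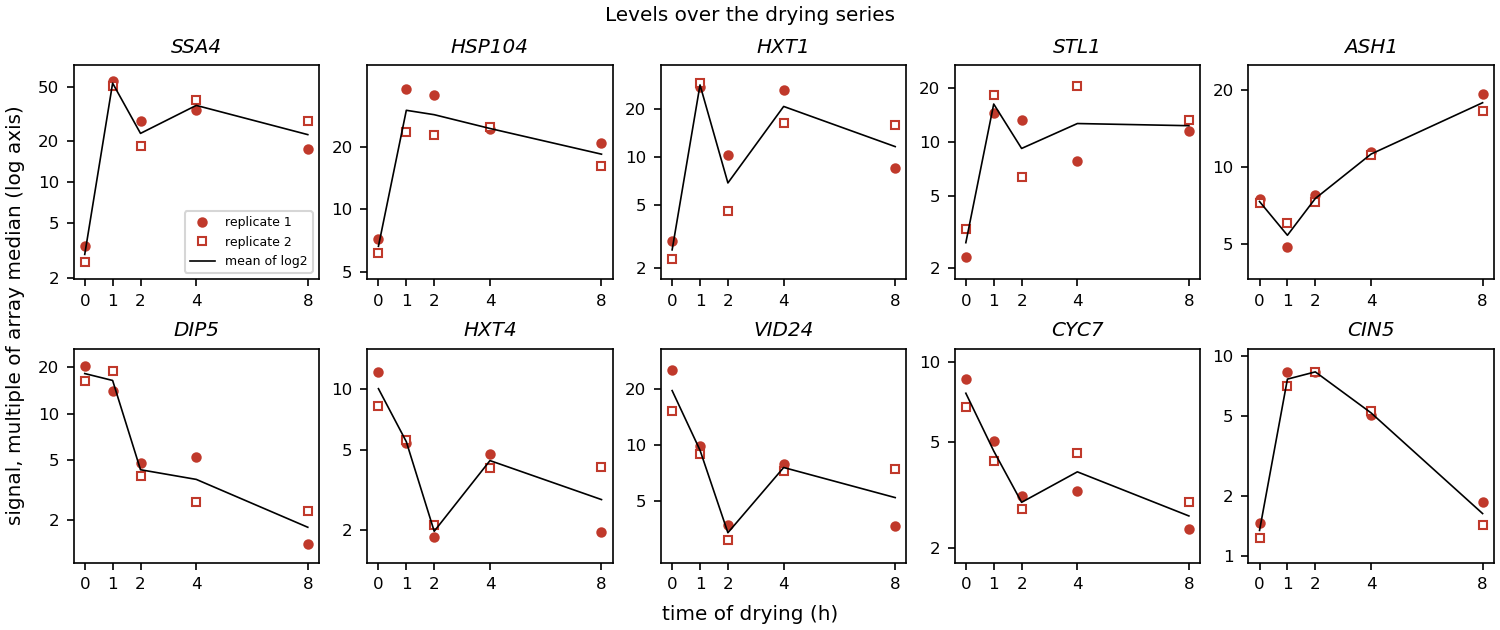
Signal of 10 genes as multiples of the array median on a log axis against the hours of drying, with 1 point per array and a line through the mean of log2 values. SSA4 and HXT1 peak at 1 h and remain above 0 h at 8 h, ASH1 is highest and DIP5 lowest at 8 h, and CIN5 at 1.87 and 1.43 medians is near its 0 h level again.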

How the data were processed

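Linear signal intensities of 10 arrays were used as deposited, 1 column per array. Per the submitters' processing notes they were made with GCOS, whose version the sources used here do not state. They were not yet scaled, since array medians ran from 23.6 to 115.4. Arrays have no read depth, so their number limits the precision, and values near the floor cannot be told from background here. Signals were divided by the array's median over the 9275 probe sets that are not among the 60 controls, floored at 0.1 medians and converted to log2. Of 6504 probe sets assigned to 1 gene, the brightest of each gene was kept, and genes with a mean under 0.2 medians were left out, which left 5365 of 5656 genes. Names and gene types come from the platform annotation and the R64 gene table.

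All 10 arrays entered 1 group-means model in limma 3.58.1 in R 4.3.3, with eBayes and an intensity trend, and the contrasts were 8 h minus 0 h and 8 h minus 4 h. Errors are limma's SE with n = 2 arrays per group, and they draw on the spread of all groups. Adjusted p values are two-sided and follow Benjamini-Hochberg over 5365 genes, with a threshold of 0.05, and the p values measure the spread between these arrays. On simulated data for 8 h against 0 h, the fit of 5365 genes recovered 18% of 100 changes of 1 log2 unit and 71% of 100 changes of 2 log2 units. The simulated noise was independent, with 1 spread per gene for all times. In the real data, limma's array weights were 0.579 at 8 h and 1.342 at 0 h, where a lower weight marks a larger spread. Recovery in the real comparison may therefore be lower. The alternatives were other scalings, floors, filters and probe set rules, no trend, array weights, a replicate block and left-out arrays.

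The comparison, the 48 gene lists, the tests and the naming rule were chosen with earlier results of these data known. Named genes are the 15 largest rises and 15 largest falls among called genes, up to 3 genes of each list with the smallest adjusted p, and 30 chosen stress and reference genes. Called genes outside this rule were named after their values were seen, namely PEX9, ASH1, PRM10, PXR1, YPT52, SOK2, TLD1, PMA2, ZNF1, SNR78 and the 6 tRNA genes given with a range of rises. Also chosen after their values were seen were ARO8, CIN5, CYC1, FBP1, FOX2, GAP1, HPA3, HSP30, HXT2, HXT3, MNE1, MTH1, SNR72 to SNR75, SNR77, STE2, STE3, TRR4 and YNCJ0008W. Promoter motifs were not searched and no sequences are shown, because no promoter or sequence table was used here.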

Additional observations from a re-analysis of the deposited data

How the results depend on the processing

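All 51 genes called at 8 h against 0 h kept their direction under every alternative run, and 8 of them were called under each of the 17 alternatives other than leaving out the scaling. The count of calls, 51 with 27 higher and 24 lower, moved more. It was 97 (59 and 38) after quantile normalization, 10 (5 and 5) with a floor of 0.25 medians, 27 (11 and 16) without the filter on dim probe sets and 15 (5 and 10) without the intensity trend. Without scaling it was 0 (0 and 0) in limma, with 18 genes higher and 23 lower at an unadjusted p under 0.05, and the median of all genes then lay at -0.29. With the replicate number as a block (replicate block) it was 96 (58 and 38). Same-numbered arrays of 8 h and 0 h deviated together at r = 0.104, and over all pairs of groups r ran from -0.058 to 0.175, and the numbers were not taken to pair the samples, although replicate 1 was the dimmer array at 8 h, 2 h, 1 h and 0 h. With each of the 4 arrays left out in turn, the count ran from 14 to 186, the higher genes from 7 to 89 and the lower genes from 7 to 97. Settings chosen after the data were seen left out the dim replicate 1 of 2 h, which gave 74 (36 and 38), and that array with the dim replicate 1 of 8 h, which gave 81 (30 and 51). The 75th percentile, the mean of probe sets, array weights and a fit of only the compared groups kept the count within 1.5 times. The causes were not tested. At 8 h against 4 h, the 1 call became 0 after quantile normalization, without scaling, with the higher floor and without the filter. The same held with only the 8 h and 4 h arrays fitted and with array weights. Its loss without replicate 2 of 4 h or without either 0 h array is given above. With 1 of the 8 h or 4 h arrays left out, the difference of CIN5 ran from -1.86 to -1.47. Without the intensity trend the 1 call was MNE1 (-2.74), and without replicate 2 of 4 h it was HPA3 (2.11), both in place of CIN5. For CIN5 the adjusted p in limma ran from 0.00469 to 0.949. With 2 arrays per group, changes of 1 log2 unit were recovered in 18% of simulated cases, so most smaller differences could not be detected.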

Other observations

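Control probe sets for spiked bacterial and phage RNAs stood higher against the array median on replicate 1, the dimmer array, of both 8 h and 0 h. The hybridisation spikes had median levels of 8.76 and 1.33 array medians on replicates 1 and 2 of 8 h, against 3.89 and 2.06 at 0 h. Before scaling, their signals were 206.7 and 153.1 at 8 h, against 164.5 and 203.2 at 0 h. The poly(A) spikes had 7.16 and 1.72 array medians at 8 h, against 6.10 and 2.17 at 0 h.

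Multidrug resistance and polyamine transport had the lowest median of the 48 lists, at -0.33 over 26 genes (-0.12 without replicate 1 of 0 h). Of the 26, 0 were called, beside 0.951% of all genes. Both 8 h arrays lay below both 0 h arrays for 11 of them, beside 16.9% of all genes. Mitochondrial ribosomal proteins had a median of -0.14 over 73 genes, with -0.25 on replicate 1 and -0.02 on replicate 2 of 8 h. Genes of sulfur assimilation and sulfur amino acids had a median of -0.13 over 34 genes, of which 0 were higher and 4 were lower at an unadjusted p under 0.05, beside 4.68% and 4.59% of all genes. Both 8 h arrays lay below both 0 h arrays for 12 of the 34.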
